A study of Mus musculus with 31 samples.

Results

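Hearts of female mice with 1 Met allele of the human BDNF knock-in (Val/Met) were compared with hearts of female Val/Val mice. All samples titled as female with either genotype were taken, which gave 10 of the 31 hearts of the series, 6 Val/Val and 4 Val/Met. The animals were 8 weeks old, came from heterozygous breeders, and were litter-matched in batches per the study's methods. The label of every heart, Val/Val included, carries the transgene tag hBDNF, while the study describes the Val/Val controls as carrying normal mouse Bdnf, so that mutated human BDNF is set against the mouse gene. RNA came from the whole heart and not from isolated cells. Fewer cells of a type and less RNA per cell therefore cannot be told apart in any value below. The 10 genes that define heart tissue were all present, with no value under 1146 normalized counts in Val/Val or 1009 in Val/Met hearts.

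BDNF is a secreted growth factor of the neurotrophin family. It binds the receptor kinase TrkB, and its precursor binds the receptor p75 together with sortilin. The Met allele changes the pro-domain of the precursor and is known for lowering regulated secretion of BDNF from neurons. In heart, BDNF is made by several cell types, among them myocytes and endothelium. Interferons, whose target genes fill part of this report, are cytokines that act through the JAK kinases and the STAT transcription factors. Their targets include the GTPases that attack intracellular pathogens and the machinery that shows peptides to T cells.

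The deposited values are gene counts normalized by the authors, and they are called normalized counts here. Their sum was 28268518 to 28424130 in the 6 Val/Val hearts and higher, 29071299 to 29459862, in Val/Met replicates 1, 2 and 6. It was 66645780 in Val/Met replicate 5, where 1 pseudogene, Gm4613, had an extreme value. The part of this difference in sums in the values of the most abundant genes was not tested. Read depth is not known for these values, and counting error therefore cannot be given. The distributions of the values were nearly the same in all hearts, with ranks 1000 to 13000 differing between hearts by at most 0.070 on the log2 scale. Exact ties were found among the most abundant genes, with 25 genes that had the same value in at least 4 of the 10 hearts, and for these the spread is understated. The sample description in the labels opens with a number, and hearts that share this number are called a project here. Reading the number as a sequencing project is an assumption. The 10 hearts came from 2 of the 3 projects. Val/Val replicates 1 and 2 and Val/Met replicates 1 and 2 were in project 2766, and Val/Val replicates 3 to 6 and Val/Met replicates 5 and 6 in project 3113. Within each group both projects had the same mean log2 value, within 0.001, for all 13733 genes tested in Val/Val and for all but 3 in Val/Met. The 2 Val/Met hearts of a project therefore lay at equal log2 distances above and below the group mean for each of these genes, and a fold change within a project equals the pooled one by construction. What a difference between projects adds cannot be told apart from the genotype. Spearman correlations between the 10 hearts ran from 0.963 to 0.996, and Val/Val replicate 4 had the lowest median correlation, 0.979.

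Genes were tested with limma on the log2 scale, in 1 fit over all 31 hearts with a mean for each group and project. A gene is said to have risen or fallen where its unadjusted p was under 0.05, and the Benjamini-Hochberg adjusted p is given for the genes described. Among 13733 genes tested, 925 (6.74%) passed, 285 higher (2.08%) and 640 lower (4.66%) in Val/Met. With the fold change of at least 1.5 that the study also asked for, 83 genes passed (0.604%), 52 higher (0.379%) and 31 lower (0.226%). By limma, 0 genes (0%) passed after adjustment, and the smallest adjusted p was 0.198. The 4 Val/Met hearts did not overlap the 6 Val/Val hearts for 537 genes (3.91%), of which 143 were higher (1.04%) and 394 lower (2.87%). Of the 83 genes, 30 did not overlap. Of 98 genes that passed and were refitted with each heart left out in turn, 46 passed in every one of the 10 fits, and 15 in fewer than 5. These 15 were Gbp7, Jak1, Stat2, Parp14, Erap1, Ndufv1, Sln, Slc27a1, Plin5, Adrb1, Gadd45b, Gadd45g, Vegfa, Dnaja1 and Mtor. The median log2 fold change over all tested genes was -0.02, with quartiles of -0.10 and 0.09.

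**Figure D1:**
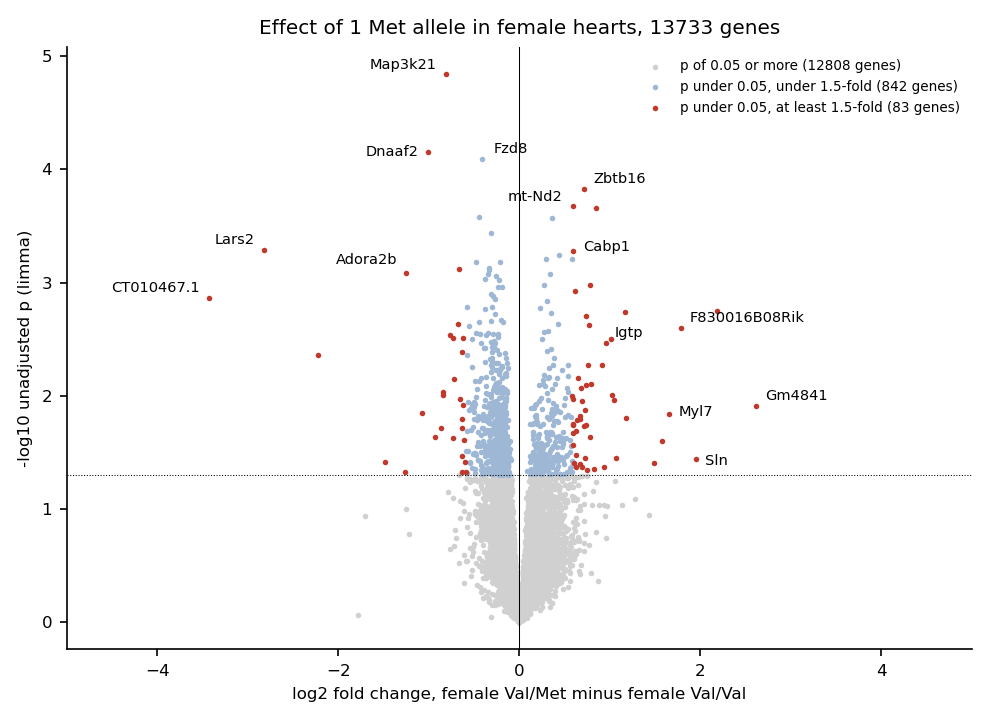
Each point is a gene, placed by its log2 fold change (female Val/Met minus female Val/Val, x axis) and by -log10 of its unadjusted limma p (y axis). The dotted line is the 0.05 threshold, red marks the 83 genes past it and past 1.5-fold, and 2 genes beyond the axis are not drawn. Map3k21 has the smallest p, and CT010467.1 and Lars2 lie far to the left.

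Only 45 of the 83 genes (54.2%) were annotated as protein-coding, against 86.2% of all genes tested. Pseudogenes made up 13.3% of the 83 and 5.05% of all, and unclassified transcripts (TEC) 14.5% and 3.24%. The protein-coding genes with the clearest separation were mostly of low to moderate abundance, and they are described first. Among other classes, the largest rises with no overlap besides Gm4070 were the pseudogene Gm6581 (1.16 ± 0.33) and the unclassified transcript Gm44001 (0.78 ± 0.21), and the falls besides CT010467.1 were the noncoding transcripts Gm20427 (-0.86 ± 0.34) and 1810059H22Rik (-0.73 ± 0.30).

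Map3k21, a mixed-lineage kinase of the JNK pathway (chromosome 8), fell. Its normalized counts were 104.7, 94.1, 89.2, 117.1, 102.0 and 91.2 in the Val/Val hearts and 55.6, 57.4, 55.2 and 57.9 in the Val/Met hearts. Every Val/Met heart lay below every Val/Val heart. The log2 fold change was -0.81 ± 0.15 (SE), with an unadjusted limma p of 1.4e-05 and an adjusted p of 0.198. Dnaaf2, which helps to assemble the dynein arms of cilia (chromosome 12), was at 69.1 to 91.4 in Val/Val hearts. The Val/Met values were 36.6, 41.6, 49.3 and 30.9, all lower, with a log2 fold change of -1.01 ± 0.21 (limma adjusted p = 0.370). Its transcripts share 757 bases with the overlapping gene Gm49383, so reads could be assigned to either. Fzd8, a receptor for Wnt ligands, fell from 648 ± 59.7 (SD, n = 6) to 487 ± 13 (SD, n = 4), a log2 fold change of -0.41 ± 0.08 (limma adjusted p = 0.370). Irx3, an Iroquois transcription factor of the ventricular conduction system, fell from 1365 ± 67.4 to 1098 ± 89.7, by 0.32 on the log2 scale. Neither gene overlapped between the groups.

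Zbtb16, a zinc-finger transcription factor (PLZF) known as a glucocorticoid target, stood out among the genes that rose. The Val/Val hearts had 4437, 4998, 4150, 3693, 4717 and 6801 normalized counts, and the Val/Met hearts 8283, 7222, 8154 and 7336. All 4 Val/Met values were above the highest Val/Val value. The log2 fold change was 0.72 ± 0.16 (limma unadjusted p = 0.000148, adjusted p = 0.463). Of the 27 tested glucocorticoid targets, 2 rose (7.41%, against 2.08% of all genes) and 0 fell, with a median of -0.11. The 2 were Zbtb16 and Mertk, a receptor kinase for the clearance of dead cells. Of the 27, 18 were below 0, while 45.0% of all tested genes were above 0. Chd6, a chromatin remodeller, rose from 3956 ± 432 to 5058 ± 179 (log2 fold change 0.36 ± 0.08). Cabp1, a calmodulin-like calcium sensor best known from neurons, was at 52.0 to 74.3 in Val/Val hearts and at 106.4, 82.2, 99.4 and 87.9 in Val/Met hearts. Its log2 fold change was 0.59 ± 0.14 (limma adjusted p = 0.523), again with no overlap.

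Adora2b, the low-affinity A2B receptor for adenosine, had the steepest decrease among the receptors followed. The Val/Val hearts spread widely, at 66.1, 57.6, 87.3, 105.2, 33.5 and 47.1 normalized counts. The Val/Met hearts were at 30.5, 22.1, 23.9 and 28.2, all below the lowest Val/Val heart. The log2 fold change was -1.25 ± 0.32 (limma unadjusted p = 0.000825, adjusted p = 0.523). Further protein-coding genes that fell by at least 1.5-fold with no overlap included Grin2c, an NMDA receptor subunit (by 1.08 on the log2 scale), Sphk1, which makes sphingosine 1-phosphate (by 0.84), Zdhhc23, a palmitoyltransferase (by 0.84), Snrnp25, a protein of the minor spliceosome (by 0.67), Arsg, a lysosomal sulfatase (by 0.66), and Nr5a2, an orphan nuclear receptor (by 0.63). These 6 had means of 44.3 to 70.1 in Val/Val and 27.1 to 43.5 in Val/Met hearts. Star, which carries cholesterol into mitochondria for steroid synthesis, rose from 35.3 ± 8.15 to 57.5 ± 1.54, and Zfp429, a zinc-finger gene, from 34.4 ± 3.42 to 52.1 ± 9.75. Cyp26b1, which breaks down retinoic acid, was at 197 to 492 in Val/Val hearts and at 509, 1571, 630 and 1268 in Val/Met hearts. Its log2 fold change of 1.49 ± 0.68 had an unadjusted limma p of 0.0396, and it passed in 5 of the 10 fits that left out 1 heart. Rxra, a partner receptor for retinoic acid receptors, fell by 0.21 on the log2 scale. Of the 14 genes tested in the retinoic acid list, only Cyp26b1 rose (7.14%) and only Rxra fell (7.14%), against 2.08% and 4.66% of all genes.

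**Figure D2:**
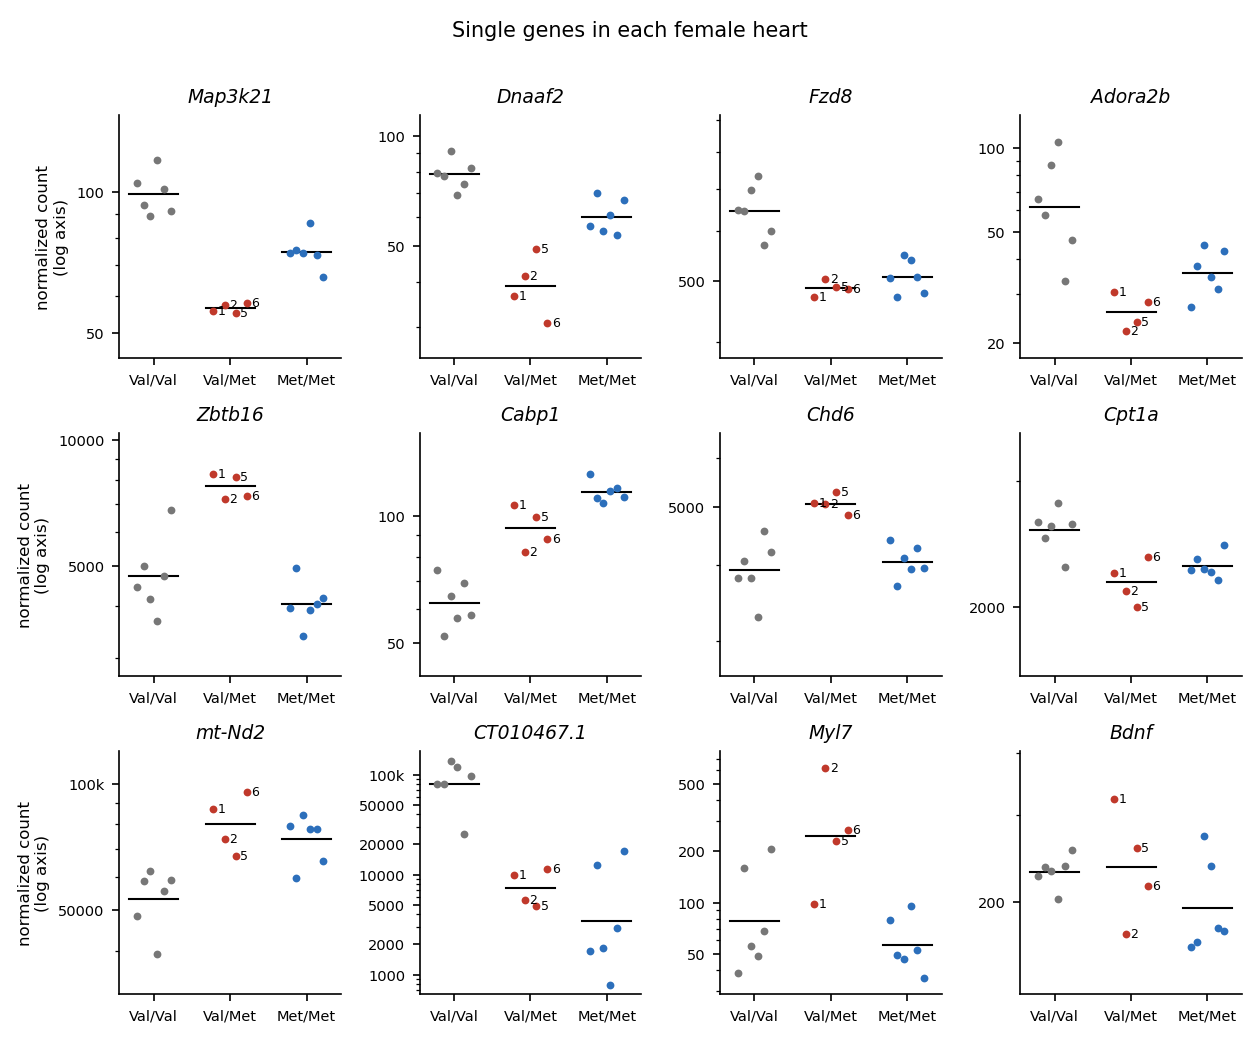
Normalized counts (log axis) of 12 genes in the 6 Val/Val (grey), 4 Val/Met (red, with replicate numbers) and 6 Met/Met (blue) female hearts, with the mean of the log values as a bar. Map3k21, Dnaaf2, Adora2b, Zbtb16, Cabp1 and CT010467.1 show no overlap between Val/Val and Val/Met, while Bdnf overlaps throughout.

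Genes of the interferon gamma response were higher in 2 of the 4 Val/Met hearts. Of the 36 tested members of the list, 10 rose (27.8%) and 1 fell, against 2.08% and 4.66% of all genes. Of the 36, 31 had a log2 fold change above 0, against 45.0% of all genes tested. The median over the list was 0.33, beside -0.02 over all genes tested. Among the risers were the immunity-related GTPases F830016B08Rik, Igtp, Irgm2, Iigp1 and Gm4841 and the guanylate-binding proteins Gbp4, Gbp6, Gbp7 and Gbp9. Jak1, the kinase shared by interferon receptors, fell by 0.11 on the log2 scale (limma unadjusted p = 0.0471, adjusted p = 0.734). The receptor genes Ifngr1 and Ifngr2 did not pass, with log2 fold changes of 0.00 and -0.07.

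Promoter sequences are shown for the risers that could be matched. RefSeq promoters (GRCm38.p6) were matched for 24 of the 36 tested list members, and 3 of these had risen, Igtp, Irgm2 and Gbp7. The 250 bases before their start sites are printed 5′ to 3′ on the strand of the gene. Capitals mark matches on either strand to GAAANNGAAA, a pattern like the interferon-stimulated response element, and to TTCNNNGAA, a pattern like the gamma-activated site.
Igtp, chr11:58199306-58199555, plus strand: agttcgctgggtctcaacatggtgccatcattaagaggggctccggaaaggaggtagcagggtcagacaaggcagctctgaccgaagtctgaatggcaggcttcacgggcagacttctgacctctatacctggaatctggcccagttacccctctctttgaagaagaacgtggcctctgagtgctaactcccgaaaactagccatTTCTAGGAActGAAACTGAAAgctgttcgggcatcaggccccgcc
Irgm2, chr11:58214727-58214976, plus strand: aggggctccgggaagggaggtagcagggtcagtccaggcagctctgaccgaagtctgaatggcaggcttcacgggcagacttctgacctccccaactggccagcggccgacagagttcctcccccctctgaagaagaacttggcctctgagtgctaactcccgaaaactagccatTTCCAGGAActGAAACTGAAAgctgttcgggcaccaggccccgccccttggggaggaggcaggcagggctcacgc
Gbp7, chr3:142530086-142530335, plus strand: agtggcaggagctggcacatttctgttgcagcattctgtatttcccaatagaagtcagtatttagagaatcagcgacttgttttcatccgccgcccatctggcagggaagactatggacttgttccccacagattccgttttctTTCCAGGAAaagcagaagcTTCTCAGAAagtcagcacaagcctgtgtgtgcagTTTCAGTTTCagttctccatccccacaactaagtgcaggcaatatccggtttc
All 3 windows hold both patterns. In Igtp and Irgm2 the TTCNNNGAA match lies just before the GAAANNGAAA match in a nearly identical stretch. GAAANNGAAA occurs in 2.98% of all 32851 promoters of this length, TTCNNNGAA in 7.02%, and both together in 0.332%. Of the 24 list members, 9 held the first pattern (37.5%), 11 the second (45.8%) and 6 both (25%). Among the 9758 tested genes with a promoter, the shares were 3.09%, 7.01% and 0.42%. Gbp5, Tgtp1 and Tgtp2 also hold both patterns, and their unadjusted limma p-values were 0.0828, 0.187 and 0.0535. A match describes the letters of the window and does not show a bound site.

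Per heart, the rise was uneven. Igtp had 323, 370, 362, 371, 367 and 291 normalized counts in the Val/Val hearts. In the Val/Met hearts it had 345, 1307, 364 and 1239 (replicates 1, 2, 5 and 6). Replicates 2 and 6 were above 3 times the highest Val/Val heart, and replicates 1 and 5 lay within the Val/Val range. Irgm2 gave the same picture, with 712, 2542, 853 and 2123 in Val/Met hearts against 745 to 901 in Val/Val. Transcripts of Irgm2 and Igtp share 165 bases at 100% identity, so some reads could be assigned to either. Iigp1, F830016B08Rik and Gm4841, the last of these chosen after its values were seen, were also highest in replicates 2 and 6, with Gm4841 at 285 and 531 there, at 51.6 and 27.7 in replicates 1 and 5 and at 9.81 to 39.97 in Val/Val hearts. Replicates 2 and 6 belong to different projects. The equal project means, however, place 1 Val/Met heart of each project above the group mean and the other equally far below. A high heart in each project is therefore not an independent recurrence. The median over the list, as log2 distance from the Val/Val mean, was 0.76 and 0.72 in replicates 2 and 6, -0.10 and -0.07 in replicates 1 and 5, and -0.17 to 0.12 in Val/Val hearts.

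Because of this, the count of risers moved with single hearts. Leaving out Val/Met replicate 6 gave 4 and leaving out replicate 2 gave 5, while dropping replicate 1 or 5 gave 22 and 21. The count stayed between 8 and 11 when a Val/Val heart was dropped. For Igtp the log2 fold change was 0.96 ± 0.29 (limma unadjusted p = 0.00343, adjusted p = 0.644), and it passed in all 10 of these fits. Irgm2 passed in 8 and was at 0.36 without Val/Met replicate 2. With the replicate number as a block the list had 17 risers.

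**Figure D3:**
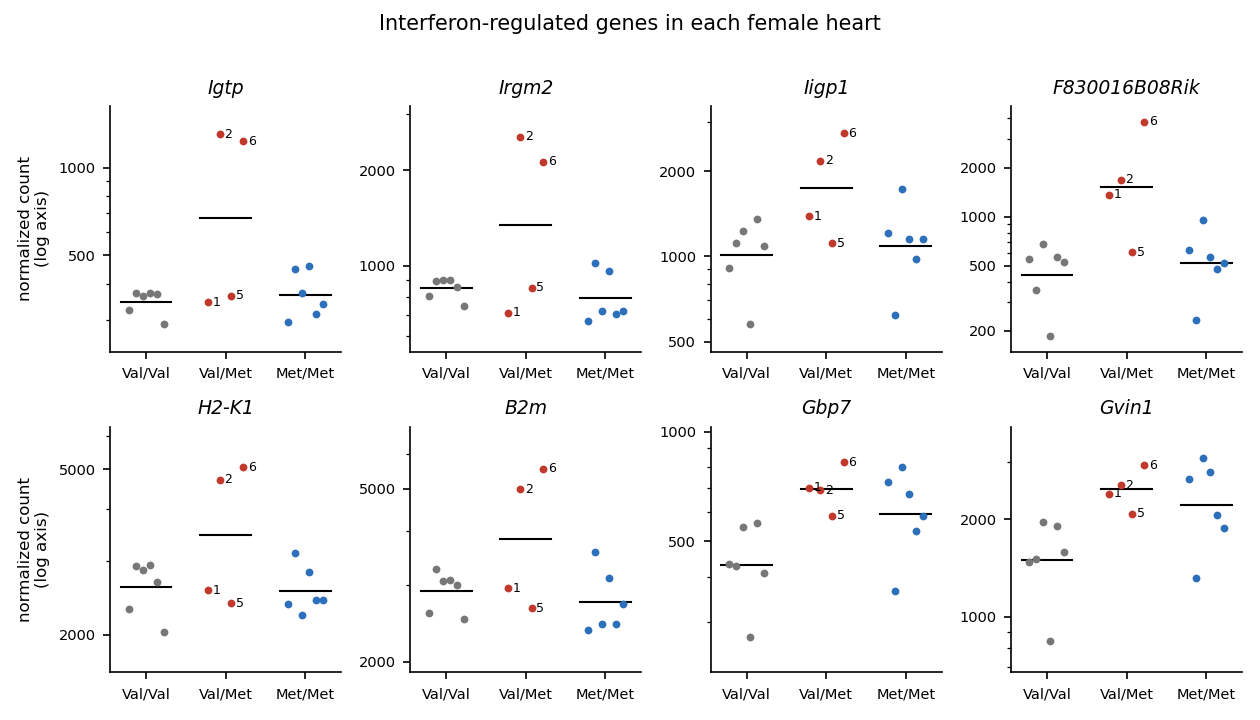
Normalized counts (log axis) of 8 interferon-regulated genes in female Val/Val (grey), Val/Met (red, with replicate numbers) and Met/Met (blue) hearts, with the mean of the log values as a bar. For Igtp, Irgm2, H2-K1 and B2m only Val/Met replicates 2 and 6 lie above all Val/Val and Met/Met hearts. Gbp7 and Gvin1 are above Val/Val in all 4 Val/Met hearts.

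A few interferon-regulated genes were higher in all 4 Val/Met hearts. Gbp7 was at 702, 691, 588 and 825 in Val/Met hearts and at 273 to 563 in Val/Val, a log2 fold change of 0.69 ± 0.32. Gbp9 was at 606 to 743 and 461 to 600, a log2 fold change of 0.37 ± 0.14. Gvin1, a very large interferon-inducible GTPase, had 844 to 1965 in Val/Val hearts and 2077 to 2933 in Val/Met hearts, with a log2 fold change of 0.72 ± 0.32. Gm4070 rose by 0.76 on the same scale, but its transcript is 99.97% identical to that of Gvin1 over 9005 bases. Reads cannot be told apart between these 2 loci, and their summed value rose by 0.73 (limma unadjusted p = 0.0151). For Gbp7, 3 of the 10 fits that left out 1 heart passed, and for Gvin1 6 did.

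Antigen presentation followed the same hearts. Of 31 tested members, 7 rose (22.6%) and 0 fell, and the median log2 fold change was 0.22. H2-K1, a classical class I heavy chain, was at 2028 to 2942 in Val/Val hearts and at 2555, 4706, 2380 and 5052 in Val/Met hearts. B2m, its light chain, was at 2511 to 3264 and at 2954, 4993, 2655 and 5556. In both genes only replicates 2 and 6 exceeded the Val/Val range. H2-Q7 and H2-DMa, a class I and a class II accessory gene, had log2 fold changes of 0.60 ± 0.27 and 0.58 ± 0.28, and H2-Q7 shares 1006 bases at 96.4% identity with H2-Q5. The endoplasmic reticulum chaperones Pdia3 and Canx and the peptidase Erap1 rose less, by 0.19, 0.16 and 0.13, but in Pdia3 the groups did not overlap (2628 to 2971 and 3027 to 3400). Dropping Val/Met replicate 2 or 6 left 2 risers, with H2-K1 at 0.24 and B2m at 0.23 without replicate 6, while dropping Val/Met replicate 1 or 5 gave 14 and 17. Dropping Val/Val replicate 1 or 6 left 2 and 3. With the replicate number as a block there were 16.

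Targets of type I interferon moved less. Of 47 tested members of the interferon alpha response, 4 rose (8.51%) and 0 fell, with a median of 0.15. These were Trim30a (0.32 ± 0.11), Mndal (0.47 ± 0.19), Stat2 (0.25 ± 0.12) and Parp14 (0.21 ± 0.10). Of the 47, 41 had a log2 fold change above 0, against 45.0% of all genes tested. Dropping Val/Met replicate 6 left 1 riser, dropping Val/Met replicate 5 gave 8, and dropping Val/Val replicate 1, 4 or 6 left 2. Stat2 was at 0.17 without Val/Met replicate 2, and did not pass. The block on replicate numbers gave 8. Isg15 and Irf7, core members of that response, had log2 fold changes of 0.00 and 0.05.

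Markers of immune cells were followed beside these lists. Of 25 tested macrophage and monocyte markers 0 rose and 0 fell, with a median log2 fold change of 0.11. The macrophage markers were nevertheless higher in the same hearts, with list medians of 0.45 and 0.44 in replicates 2 and 6, -0.28 and -0.20 in replicates 1 and 5, and -0.34 to 0.27 in Val/Val hearts. Their summed level was 9787 to 14720 normalized counts in Val/Met hearts and 9759 to 13470 in Val/Val. Only 5 of 40 lymphocyte markers and 6 of 23 markers of neutrophils, mast cells and platelets were tested, with 0 called in either list, and the T-cell receptor genes Cd3e, Cd3d and Cd3g were not among those tested. The list median of the lymphocyte markers was 0.24 and 0.36 in Val/Met replicates 2 and 6, -0.12 and -0.35 in replicates 1 and 5, and -0.37 to 0.20 in Val/Val hearts. Summed lymphocyte markers were at 310 to 489 in Val/Met and 322 to 496 in Val/Val hearts. The part of immune cell number in the interferon values was not tested. Il10ra, the receptor chain through which interleukin 10 restrains inflammation, was at 118 ± 25.7 and 128 ± 20.8, with a log2 fold change of 0.14 (95% confidence interval -0.35 to 0.62). In the list of 24 tested genes for interleukin 10 and cytokine suppression, 0 rose and 1 fell (4.17%, against 4.66% of all genes). This was Tnfaip3, an inhibitor of NF-kappaB signalling, which fell by 0.33.

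**Figure D4:**
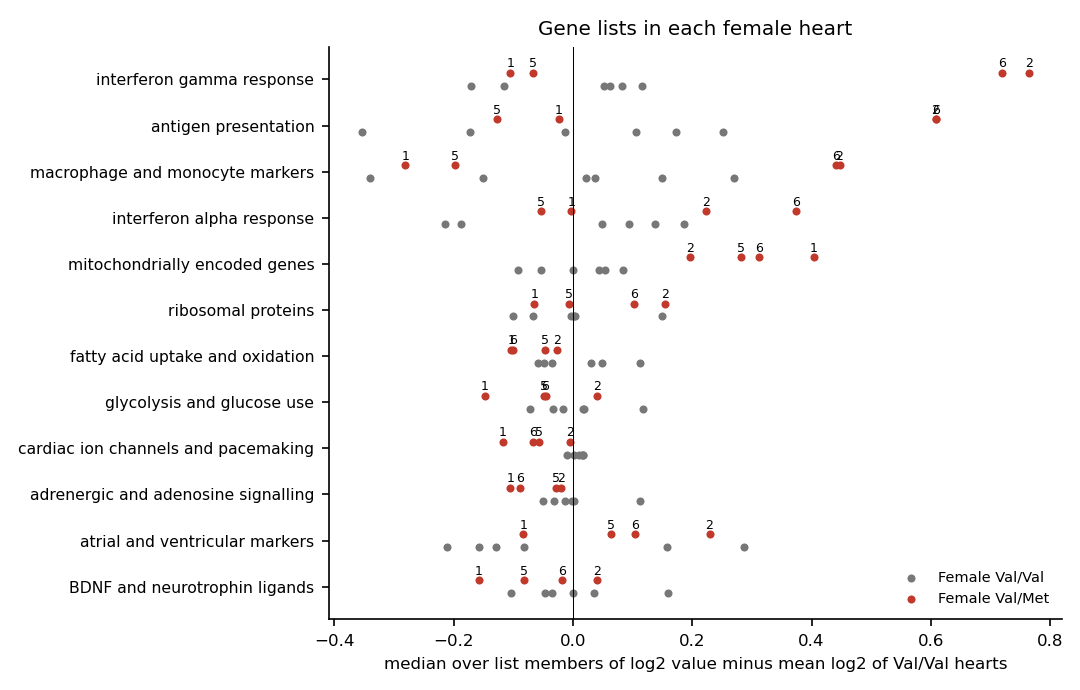
Each point is 1 heart, placed by the median over the members of a list of the log2 value minus the mean log2 of the Val/Val hearts (x axis). Grey is Val/Val and red Val/Met with replicate numbers. Interferon gamma response, antigen presentation and macrophage markers are high in Val/Met replicates 2 and 6, while the mitochondrially encoded genes are higher in all 4 Val/Met hearts than in any Val/Val heart.

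Genes of the mitochondrial genome moved in all 4 Val/Met hearts. Of 14 tested, 8 rose (57.1%) and 0 fell, with a median log2 fold change of 0.29, and the count stayed at 8 or 9 when any 1 heart was left out. The list median was 0.20 to 0.40 in the Val/Met hearts and -0.09 to 0.08 in the Val/Val hearts. mt-Nd2, a core subunit of complex I, had 48341, 58593, 62039, 39408, 55600 and 59020 normalized counts in Val/Val and 87197, 73719, 67343 and 95451 in Val/Met hearts. The groups did not overlap, and the log2 fold change was 0.59 ± 0.13 (limma unadjusted p = 0.00021, adjusted p = 0.463). mt-Nd4l rose by 0.61 ± 0.16 and mt-Nd4 by 0.27 ± 0.07, also with no overlap. For mt-Nd4, Val/Val replicates 3, 4 and 6 had the same value, 132429, so its spread is understated. mt-Atp8, a subunit of the ATP synthase, rose by 0.80 ± 0.27 with overlapping hearts. mt-Co1, the catalytic subunit of complex IV, rose by 0.31 ± 0.13, but 6 of its 10 values were exact ties. Its range of log2 fold changes with 1 heart left out, 0.226 to 0.395, was also that of Ttn, another very abundant gene with ties. mt-Co3 did not pass, at -0.16, although all 4 Val/Met hearts were below the Val/Val hearts, whose 6 values were tied.

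Several of these genes have near-identical nuclear copies on chromosome 1 that could take some of their reads. Over the copy Gm10222, which matches mt-Nd4l over 294 bases at 100% identity, the log2 fold change was 0.73. Over Gm28439, which matches mt-Nd4 over 876 bases at 100% identity, it was 0.06, and over Gm10925, the copy of mt-Atp6, 0.53. Summed with its copies, each of mt-Nd4l, mt-Nd4, mt-Nd3, mt-Atp6 and mt-Co1 still passed, and 8 of the 14 genes were called as before. mt-Nd2 also matches Gm13339 over 510 bases at 96.7% identity, and mt-Co1 matches Gm13340 over 1545 bases at 97.6%. Both copies were under the 98% identity asked for and were not summed. The nuclear genes of the respiratory chain did not follow. Of 37 tested for complex I, 2 rose (5.41%) and 1 fell (2.7%), with a median of 0.01. Of 43 tested for complexes II to V, 2 rose (4.65%) and 0 fell, with a median of -0.01. Over all genes, 2.08% rose and 4.66% fell. Ndufa5 (0.39 ± 0.15) and Uqcrb (0.25 ± 0.11), subunits of complexes I and III, rose with no overlap, and Cox6a2, the muscle form of a complex IV subunit, rose by 0.30 ± 0.12.

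Ribosomal protein genes showed small rises that depended on how reads were shared. Of 78 tested, 8 rose (10.3%) and 0 fell, with a median of 0.03. Rps6 had 610, 650, 693, 588, 579 and 666 normalized counts in Val/Val and 908, 800, 745 and 976 in Val/Met hearts, with no overlap and a log2 fold change of 0.44 ± 0.11 (limma adjusted p = 0.523). Fau, Rpl23 and Rpl11 rose by 0.35, 0.37 and 0.43, also with no overlap. Each of these genes has pseudogene copies in the table. Rps6-ps4, identical to Rps6 over 750 bases, held 4783 normalized counts in Val/Val against 631 for Rps6 itself, and its log2 fold change was 0.02. Summed with the copies, the log2 fold change was 0.07 for Rps6, 0.00 for Fau and 0.13 for Rpl11, none of which passed, and 0.27 for Rpl23, which did. Over the whole list, 3 genes rose after this summing, an alternative chosen after the data had been seen. Without copies summed, dropping Val/Val replicate 5 or Val/Met replicate 6 left 5 risers.

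A sequence of ribosomal RNA also differed between the groups. CT010467.1, annotated as rRNA on chromosome 17, was at 79767, 79767, 136460, 120111, 25216 and 97955 normalized counts in Val/Val hearts and at 9816, 5566, 4813 and 11350 in Val/Met hearts. All Val/Met hearts were lower, and the log2 fold change was -3.43 ± 0.93 (limma unadjusted p = 0.00137, adjusted p = 0.564). Lars2, the mitochondrial leucyl-tRNA synthetase on chromosome 9, was at 6636 to 24477 in Val/Val and at 1199 to 3845 in Val/Met hearts, a log2 fold change of -2.83 ± 0.69. Both genes were in the list of ribosomal RNA sequences followed as a sign of library preparation. For both, every female Val/Met heart was below every female Val/Val heart. In male Val/Met against Val/Val hearts 0 of the 2 passed, with a median log2 fold change of 0.56. Their part in the other values, the mitochondrial and ribosomal protein genes included, was not tested. In female Met/Met hearts both were also low, at 790 to 17250 for CT010467.1 and 335 to 4641 for Lars2.

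Some genes of fatty acid use fell by small amounts. Of 42 tested genes of fatty acid uptake and oxidation, 0 rose and 7 fell (16.7%, against 4.66% of all genes), with a median of -0.08. Cpt1a, the liver-type gate of fatty acid entry into mitochondria, had 2627, 2498, 2593, 2796, 2272 and 2615 normalized counts in Val/Val hearts and 2231, 2108, 2001 and 2350 in Val/Met. Only the highest Val/Met heart exceeded the lowest Val/Val heart, and the log2 fold change was -0.24 ± 0.06 (limma unadjusted p = 0.0011, adjusted p = 0.523). Mlycd, which removes the malonyl-CoA that inhibits that gate, fell by 0.25, and Acot1, a thioesterase, by 0.39. Dgat2 and Plin5, genes of triglyceride synthesis and storage, fell by 0.19 and 0.22, the fatty acid transporter Slc27a1 by 0.17 and the dehydrogenase Acads by 0.20. The muscle form Cpt1b was at -0.09 and the uptake gene Cd36 at 0.15, and neither passed. Dropping Val/Val replicate 1 or 4 left 3 that fell, and dropping Val/Val replicate 3 or Val/Met replicate 5 left 4. The block on replicate numbers left 3. Slc2a4, the insulin-responsive glucose transporter GLUT4, was the 1 gene of 30 tested for glucose use that passed (3.33%). It fell from 12010 ± 436 to 10810 ± 486 (log2 fold change -0.15 ± 0.06) with no overlap. In the tricarboxylic acid cycle 0 of 22 passed.

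Contractile genes were mostly flat, apart from atrial isoforms. Of 35 tested genes of the sarcomere and Z-disc, 3 rose (8.57%, against 2.08% of all genes) and 0 fell, with a median of 0.00. The risers were the atrial light chains Myl7 and Myl4 and the giant spring protein Ttn, and in Ttn 6 of the 10 values were exact ties. With 1 heart left out, Ttn and mt-Co1 had the same range of log2 fold changes, 0.226 to 0.395. Whether the rise of Ttn is separate from that of mt-Co1 was not tested. Myl7 had 38.7, 158.6, 55.2, 48.3, 68.4 and 206.3 normalized counts in Val/Val hearts and 98.3, 619.3, 229.2 and 265.7 in Val/Met hearts. The groups overlapped, since Val/Val replicates 2 and 6 exceeded Val/Met replicate 1. The log2 fold change was 1.66 ± 0.62 for Myl7, 1.57 ± 0.65 for Myl4 and 1.95 ± 0.87 for Sln, the atrial inhibitor of the calcium pump. All 3 were highest in Val/Met replicate 2, where Sln was at 428.5 against 47.8 to 170.5 in the other 3 Val/Met hearts. The other atrial markers Nppa and Dkk3 did not pass, with 0.43 ± 0.43 and 0.60 ± 0.45, and were also high in Val/Met replicate 2 and Val/Val replicate 6. Markers of the epicardial and mesothelial covering were highest in Val/Met replicate 2, with a list median of 1.61 there and -0.95 in replicate 1. How much atrium and surface tissue each sample held was not tested. Dropping Val/Met replicate 2 gave log2 fold changes of 1.21 for Myl7 and 1.42 for Sln, and neither passed (limma unadjusted p = 0.0687 and 0.135).

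Genes that the study names were followed as a list of their own, chosen there on these same samples, so its count is not independent evidence of a direction. Of 12 tested, 2 rose, among them Cabp1, and 1 fell (Adora2b). Irgm1, an immunity-related GTPase, was at 0.30 ± 0.16, Stat6, a mediator of interleukin 4 signalling, at -0.08 and Hif1a, the hypoxia-inducible factor subunit, at 0.05, and none of these 3 passed. The study names these 3 as predicted upstream regulators in Met/Met hearts, Irgm1 in males and Stat6 and Hif1a in females. Tcap, the titin cap of the Z-disc, was at 24470 ± 2716 in Val/Val and 22690 ± 1295 in Val/Met hearts, a log2 fold change of -0.10 (95% confidence interval -0.29 to 0.08). Nppb, the natriuretic peptide released on wall stress, had a log2 fold change of 0.17 (-0.46 to 0.80). Myl2, the ventricular light chain, was at 0.12 (-0.02 to 0.26) and Atp2a2, the calcium pump SERCA2, at -0.02 (-0.27 to 0.22), and both of these had tied values in 4 hearts. Tcap, Nppb, Myl2 and Atp2a2 all missed the threshold. Of 19 tested natriuretic and stress-response genes 0 rose and 1 fell (5.26%, against 4.66% of all genes). This was Mef2d, a transcription factor of hypertrophic growth, which fell by 0.16 with no overlap. Of 30 tested genes of calcium handling, Sln rose (3.33%, against 2.08% of all genes) and 0 fell.

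A few ion channel and receptor genes fell by small amounts. Of 30 tested ion channel and pacemaking genes, 25 had a log2 fold change below 0, with a median of -0.06. Over all tested genes, 45.0% were above 0. In this list 0 rose and 3 fell (10%, against 4.66% of all genes). These were Kcnip2, the subunit that sets the transient outward current (by 0.19), Kcnh2, the hERG channel of repolarization (by 0.20), and Kcnj11, the pore of the ATP-sensitive channel (by 0.15). In Kcnh2 the Val/Val hearts were at 3189 to 3384 and the Val/Met hearts at 2474, 3313, 2869 and 2856, so that replicate 2 lay within the Val/Val range. Dropping Val/Met replicate 1 gave -0.13, which did not pass. Of 31 tested genes of adrenergic, muscarinic and adenosine signalling, 0 rose and 3 fell (9.68%, against the same 4.66%). Besides Adora2b these were Adrb1, the main beta receptor of heart, which fell by 0.18, and Adcy3, an adenylyl cyclase, which fell by 0.26. Adrb1 passed in 4 of the 10 fits that left out 1 heart, with log2 fold changes of -0.27 to -0.10, the last of these without Val/Met replicate 1 (limma unadjusted p = 0.185).

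The other lists had at most 5 called members each. Of 22 tested genes of endothelial nitric oxide signalling 3 rose (Hsp90aa1, Vegfa and its receptor Flt1; 13.6%, against 2.08% of all genes) and 0 fell. Hsp90aa1, a stress-inducible chaperone, rose by 0.42 ± 0.18, and it and its co-chaperone Dnaja1 were the 2 risers among 35 heat shock and unfolded protein genes (5.71%). Dropping Val/Met replicate 1 gave 0.15 for Dnaja1, which did not pass. Both remained past the threshold when summed with their pseudogene copies. Of 32 targets of hypoxia-inducible factor, Vegfa and Ankrd37 rose (6.25%), and Adora2b, Pfkfb4 and Kdm4b fell (9.38%, against 4.66%). Of 29 immediate early genes, Gadd45b and Gadd45g fell (6.9%), and of 23 clock genes Bhlhe41 fell (4.35%). Of 45 genes for Cdc42 and the actin cytoskeleton, Pak1, a kinase that Cdc42 activates, rose by 0.49 (2.22%), and Rhob, Arpc1a and Cdc42ep3 fell by 0.46, 0.18 and 0.14 (6.67%). Cdc42ep3 passed in 5 of the 10 fits that left out 1 heart, and its log2 fold change was -0.08 without Val/Met replicate 1 (limma unadjusted p = 0.191). Cdc42 itself was at 0.01 (95% confidence interval -0.12 to 0.14). Among 39 fibroblast and matrix genes and 24 complement and coagulation genes, 0 passed in either direction.

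BDNF and the genes around it showed little movement. Bdnf (chromosome 2, 109674700 to 109727007, plus strand) had 226, 235, 231, 202, 236 and 254 normalized counts in Val/Val hearts and 322, 172, 257 and 216 in Val/Met hearts. The Val/Met hearts lay on both sides of the Val/Val range, and the log2 fold change was 0.03 ± 0.20 (95% confidence interval -0.39 to 0.46). The reads of a mouse gene model cannot tell the knock-in transcript from the endogenous one in these values. Of 16 tested genes of neurotrophin ligands, receptors and processing, 0 rose and 0 fell, at a median of -0.03. Sort1, the sortilin receptor, was at 1768 ± 123 and 1656 ± 132, and the ligand Ntf3 had a log2 fold change of -0.13. Ntrk2 and Ngfr, which encode TrkB and p75, were not among the genes tested. Of 25 tested kinases and adaptors downstream of TrkB, 0 rose and 1 fell (4%, against 4.66% of all genes). This was Mtor, which fell by 0.14.

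The knock-in is carried on chromosome 2, and its neighbours were counted for that reason. Of 92 tested genes within 10 Mb of Bdnf, 1 rose (1.09%) and 4 fell (4.35%), close to the 2.08% and 4.66% over all genes. Mpped2, a phosphodiesterase-like gene, had a narrow spread, 603 to 627 in Val/Val and 489 to 525 in Val/Met hearts, with no overlap and a log2 fold change of -0.28 ± 0.08 (limma adjusted p = 0.644). The others were Bahd1, Ccdc32 and Mettl15, which fell by 0.22, 0.24 and 0.25, and A530058N18Rik, which rose by 0.59 and overlaps C130080G10Rik. Across the nuclear chromosomes with at least 20 tested genes, the share of genes that passed ran from 4.47% (X) to 8.47% (chromosome 8).

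Female Met/Met hearts share the Val/Val hearts as controls, so their values are set beside those of Val/Met only as a description. Map3k21 was at -0.81 with 1 Met allele and -0.41 with 2, Dnaaf2 at -1.01 and -0.38, and Adora2b at -1.25 and -0.78. Fzd8 was at -0.41 and -0.35, and Cabp1 at 0.59 and 0.87. Zbtb16 was at 0.72 and -0.22, and Chd6 at 0.36 and 0.04. With 2 Met alleles, 557 genes rose (4.06%) and 886 fell (6.45%) among all tested. The interferon gamma list had 10 risers with 1 Met allele and 2 with 2, with medians of 0.33 and 0.06. Antigen presentation had 7 and 1 risers, with medians of 0.22 and -0.03. The interferon alpha list had 4 and 7 risers, with medians of 0.15 and 0.13. Igtp ran from 295 to 460 in the 6 Met/Met hearts, Gbp7 from 364 to 800 and Gvin1 from 1320 to 3077. The mitochondrially encoded genes had 8 and 9 risers, with medians of 0.29 and 0.31. Tcap was at -0.10 with 1 Met allele and -0.76 with 2.

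The effect of 1 Met allele was then compared between the sexes, with 5 Val/Val and 6 Val/Met hearts of males. By limma's test of the difference, 0 genes (0%) passed after adjustment, with a smallest adjusted p of 1.00, and 262 (1.91%) had an unadjusted p under 0.05. Map3k21, at -0.81 in females and 0.11 in males, had the smallest p of all genes (limma unadjusted p = 0.000145, adjusted p = 1.00). Zbtb16 was at 0.72 and -0.03 (limma unadjusted p = 0.00216, adjusted p = 1.00), and CT010467.1 at -3.43 and 0.87 (0.00288 and 1.00). Igtp was at 0.96 and -0.07 (limma unadjusted p = 0.0178, adjusted p = 1.00). Rn7s6, a 7SL-type RNA, was at 0.85 and -0.27, and Chd6 at 0.36 and -0.04. Adora2b was low in both sexes, at -1.25 and -0.79, and its difference did not pass (limma unadjusted p = 0.31, adjusted p = 1.00). Fzd8 was likewise at -0.41 and -0.23. The interferon gamma list had 0 risers in male Val/Met hearts and a median of 0.02. Of the 14 mitochondrially encoded genes tested, 2 rose and 0 fell in male Val/Met hearts, with a median of 0.16. In males, 138 genes rose (1%) and 292 fell (2.13%) among all tested.

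**Figure D5:**
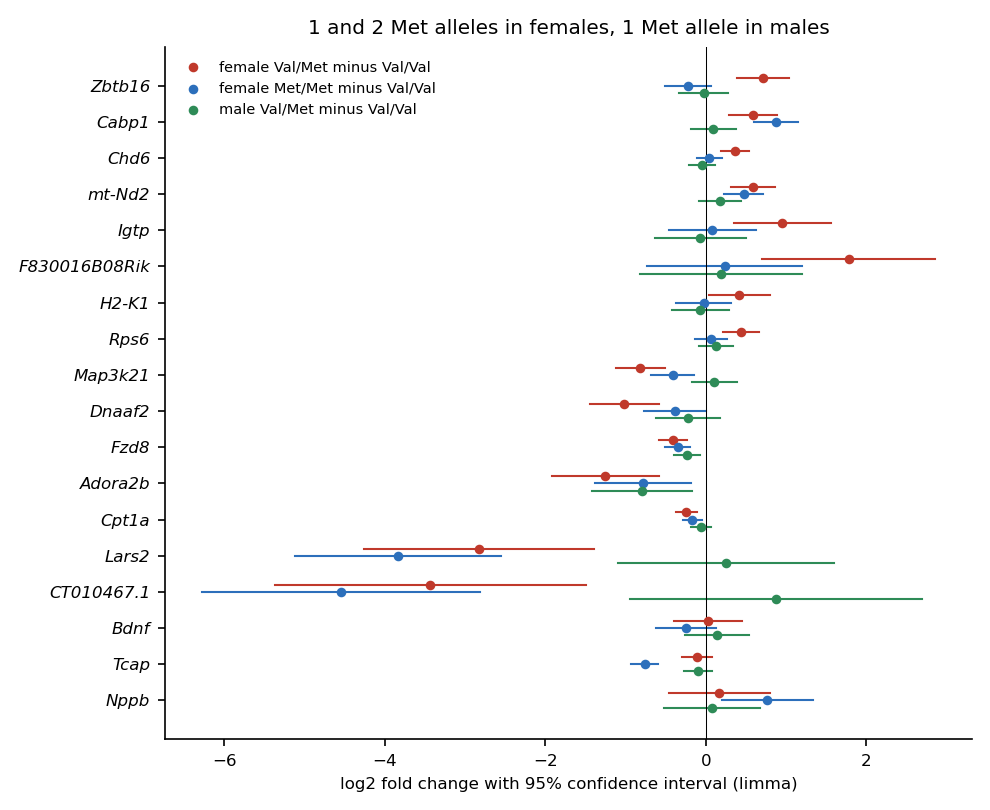
Log2 fold changes with 95% confidence intervals (x axis) of 18 genes for female Val/Met (red) and female Met/Met (blue), each minus female Val/Val, and for male Val/Met minus male Val/Val (green). The intervals of Zbtb16, Chd6 and Igtp lie wholly above 0 only in female Val/Met, CT010467.1 and Lars2 are low in both female comparisons, and Adora2b and Fzd8 are below 0 in all 3.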

How the data were processed

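RNA was sequenced from whole hearts of 31 mice. The deposited signal values are read counts per gene that the authors normalized to total counts, held in 1 table with a column for each heart. According to the methods of the study, STAR 2.5.3a mapped the reads to mm10, and they were quantified with Partek's expectation-maximization model on Ensembl release 83, while the submitters' processing notes name STAR 3.5.1a. The labels name Trizol extraction and a TruSeq RNA kit, and the paper another extraction and a stranded TruSeq kit, so reads of antisense neighbours may not be told apart. The steps that made the distributions alike and the project means equal are not given in the sources used here. The precision of a value is therefore its spread over hearts.

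Values plus an offset of 0.0001 were taken to log2, and genes with a mean of at least 29 over the 31 hearts (13733) were fitted with limma 3.58.1 in R 4.3.3 (lmFit, contrasts.fit, eBayes with trend), with 1 mean per group and project, 17 residual degrees of freedom and group means weighted by hearts. Tests were 2-sided. The fit was tested on simulated data, in which unchanged genes passed at about the stated rate with no shift between projects and more often where such a shift had been removed beforehand, so the p-values here may be too small. Lists are described by counts and medians, with no test. Positions, biotypes and transcripts are of GENCODE M21 (GRCm38), with 13570 symbols matched and 270 not. The hearts, lists and rules were chosen with earlier results of these data known. The rule for named genes took genes named in the study, the 10 largest rises and falls with no overlap among protein-coding genes (3 among others), the 10 protein-coding genes with the smallest p, the 3 called members of lowest p of each list and the 5 smallest p of the sex difference. Some genes, such as Gm4841, Irgm2, B2m, mt-Co1, the copies and the genes near Bdnf, were added as list members or after their values were seen. Genes that check the sex of the animals were not analysed here. Some list members counted here are not reported by name. Each heart is 1 animal, and litters are not given per heart. The p-values rest on the spread of hearts within a group and project, pooled over all 31 hearts of both sexes and 3 genotypes. Differences between projects within a group are absent from the deposited values, so that part of the spread between hearts is not measured.

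Alternatives were an offset of 1, no minimum mean, a minimum of 290, a minimum of 29 over the 10 hearts, 1 mean per group, only the hearts compared, upper-quartile scaling, a robust fit with no trend, equal project weights, each project alone, a replicate block and leaving out each heart. Summing the gene with its near-identical copies (98% identity over at least 150 bases, with 3 copies of extreme value left out) was added after the data had been seen.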

Additional observations from a re-analysis of the deposited data

Results flagged for a closer look

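Single hearts were set against the rest of their group with Dixon's test for the genes described, over 228 groups of 4 or 6 hearts. Chance alone flags about 1 in 20 groups, and in the 4 Val/Met hearts the equal project means keep the ratio at 0.5 or less, under the critical value of 0.829, so none can be flagged there. In Val/Val hearts 3 values were past the critical value of 0.625. For Gvin1, replicate 4 was low at 844 normalized counts, with a gap of 0.663 of the range of the log2 values. For CT010467.1, replicate 5 was low at 25216, with a gap of 0.682. For Nppa, replicate 6 was high at 6439, with a gap of 0.648. Without Val/Val replicate 4, Gvin1 had a log2 fold change of 0.56, and without Val/Val replicate 5, CT010467.1 had one of -3.76.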

How the results depend on the processing

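None of the 98 called genes that were refitted changed sign when 1 heart was left out. Among genes that had not passed, Bdnf (-0.12 to 0.18), Atp2a2 (-0.09 to 0.05), Cdc42 (-0.02 to 0.05), Upk3b (-0.43 to 0.65) and Msln (-0.21 to 0.71) did. Of 122 named genes, an offset of 1, no minimum mean and a minimum of 29 over the 10 hearts lost 0 calls at an unadjusted p under 0.05, upper-quartile scaling lost 1, equal project weights 8 and the robust fit 11. Only the hearts compared lost 27, and the lists of antigen presentation and interferon alpha then had 3 and 2 risers. A minimum mean of 290, which tests fewer genes, left 16 higher and 2 lower at 1.5-fold, 168 higher at p under 0.05 and 153 sex differences. With 1 mean per group, which does not count the projects, 643 genes were higher and 1282 lower, 42 passed after adjustment, and sex differences were 721, with 2 after adjustment. The lists then had 18 (interferon gamma), 11 (antigen presentation), 9 (interferon alpha) and 14 (ribosomal proteins) higher and 11 (fatty acids) lower. Project 2766 alone, with fewer hearts, gave 20 higher and 11 lower at 1.5-fold, 40 and 15 at any fold, 2 after adjustment, and 4, 0, 0, 4 and 2 risers for interferon gamma, antigen presentation, interferon alpha, mitochondrially encoded and ribosomal protein genes, with 0 fatty acid genes lower. Project 3113 alone gave 129 higher and 138 lower, with 5, 0, 1 and 5 risers for interferon gamma, antigen presentation, interferon alpha and ribosomal proteins, and 2 fatty acid genes lower. Copies summed left 3 ribosomal protein genes.

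Whether replicate numbers pair the hearts could not be decided. Same-numbered Val/Val and Val/Met hearts correlated in their deviations by 0.154, 0.162, 0.00921 and -0.0961. Not every heart correlated best with its own number. With equal project means, the 2 hearts of a group in project 2766 mirror each other, as do the 2 Val/Met hearts of project 3113. These correlations are therefore not independent of each other. The block on replicate number gave 322 lower genes, 17 interferon gamma, 16 antigen presentation and 8 interferon alpha risers, and 3 fatty acid genes lower; its other counts stayed within 1.5 times, and it lost 30 of the 122 gene calls. Project 2766 alone lost 80, project 3113 alone 53 and leaving out Val/Met replicate 6 lost 41.

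Leaving out 1 heart gave 38 to 81 higher and 21 to 48 lower genes at 1.5-fold, 175 to 396 higher and 347 to 889 lower at any fold, and 0 to 1 after adjustment. Higher genes were fewest without Val/Met replicate 6 and most at 1.5-fold without Val/Met replicate 2 (81). Lower genes numbered 385, 375 and 347 without Val/Met replicates 1 and 6 and Val/Val replicate 4, and at 1.5-fold 48 without Val/Met replicate 2 and 47 without Val/Val replicate 5. Risers ranged from 4 to 22 (interferon gamma), 2 to 17 (antigen presentation), 1 to 8 (interferon alpha), 8 to 9 (mitochondrially encoded) and 5 to 10 (ribosomal proteins), and fatty acid genes that fell from 3 to 9. A heart left alone in its project is assumed to vary like the others. The causes of these shifts were not tested. Depth is not known, and 4 Val/Met hearts tied in pairs by their project means limit what any single gene can show.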
